A study of Mus musculus with 2 samples.

Results

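The genes described here encode the insulin-like growth factors (IGFs), their receptors and their binding proteins: the ligands Igf1 and Igf2, the receptors Igf1r and Igf2r, and the binding proteins Igfbp2 to Igfbp7. They were chosen by symbol, 10 of the 22096 gene symbols in the deposited tables, and all 10 were found on 1 row each in both libraries with a valid estimate. RNA was sequenced from whole sciatic nerves of mice of mixed strain at postnatal day 7, with 1 library from Tsc1cKO and 1 from control nerve. The submitters' names for the tables give the genotypes as TSC1cc with Dhhcre for Tsc1cKO and TSC1cplus with Dhhcre for control. They are read here as a pair of conditional Tsc1 alleles against a single one, both together with a Cre driven by the desert hedgehog gene Dhh. On that reading the controls carry the Cre and may lack a copy of Tsc1 in the same cells. Dhh-driven Cre acts in the Schwann cell lineage and is also known to mark endoneurial fibroblasts that share its origin. The labels do not say how many animals were behind a library.

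IGF-I and IGF-II are secreted growth factors that act through the tyrosine kinase IGF1R, whose docking proteins pass the signal to PI3K, AKT and the growth-promoting kinase complex mTORC1, which the product of Tsc1 holds back. IGF2R, the mannose 6-phosphate receptor, takes IGF-II up for breakdown and sorts enzymes to the lysosome. The binding proteins hold IGFs in the extracellular space, prolonging their life or keeping them from the receptor, and some act without IGFs. In peripheral nerve, IGFs are known to support the survival and the myelination of Schwann cells. In the mouse Igf2 is expressed from the paternal copy and Igf2r, in most tissues, from the maternal one.

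Of the 10 genes, Igf2 was the one that stood at least 2-fold apart, with a lower value in Tsc1cKO nerve. The same held for 3.06% of all genes with a usable level, while 5.03% were at least 2-fold higher. A count of 1 gene is too small to set the 10 apart from these shares. In the values as deposited, the other 9 genes lay within 0.3 of 0 on the log2 scale, in both directions. Of all genes with a usable level, 45.2% lay as close to 0. After a median ratio scaling of the libraries, given below, 4 of the 10 genes did, and the share over all genes was not computed on that scale. Values are FPKM (mapped fragments, scaled by the length of the transcript and the size of the library). A difference is the log2(FPKM + 1) of Tsc1cKO less the log2(FPKM + 1) of control, a scale that understates differences of low values. With 1 library per group nothing could be tested and there is no replicate spread to judge a difference by, so "higher" and "lower" compare the 2 libraries and not the genotypes. The tables hold no read counts, so the depth behind a value is unknown.

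Igf2 can start at several places, and RefSeq (build GRCm38.p6) lists 4 start sites, each with its own promoter, while the tables give 1 value for all of them. The 250 bases upstream of the 2 starts nearest to the coding part are shown because they belong to the member that differed, beside those of Igf1, the other ligand. Capitals mark the GC box, the letters GGGCGG on either strand, a motif bound by factors of the Sp family.
Igf2, start nearest to the coding part (chr7:142657497-142657746, minus strand): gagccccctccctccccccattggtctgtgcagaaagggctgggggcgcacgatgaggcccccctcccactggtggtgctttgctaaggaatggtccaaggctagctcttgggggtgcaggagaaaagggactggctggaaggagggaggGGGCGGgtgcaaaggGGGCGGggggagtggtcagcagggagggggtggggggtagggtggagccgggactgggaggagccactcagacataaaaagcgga
Igf2, next start upstream (chr7:142658805-142659054, minus strand): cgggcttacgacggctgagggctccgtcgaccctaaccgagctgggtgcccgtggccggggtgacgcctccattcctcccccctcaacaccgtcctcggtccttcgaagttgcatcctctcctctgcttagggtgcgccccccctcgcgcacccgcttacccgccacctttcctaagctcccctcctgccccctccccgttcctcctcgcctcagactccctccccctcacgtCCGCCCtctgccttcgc
Igf1 (chr10:87860861-87861110, plus strand): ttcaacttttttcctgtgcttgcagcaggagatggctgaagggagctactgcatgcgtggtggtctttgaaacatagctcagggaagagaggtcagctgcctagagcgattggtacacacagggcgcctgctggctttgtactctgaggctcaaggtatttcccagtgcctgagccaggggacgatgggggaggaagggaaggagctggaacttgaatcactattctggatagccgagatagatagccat
The first Igf2 window held 2 GC boxes, beginning at −100 and −85 counted from the start site, and the second held 1, at −17. The windows of the remaining Igf2 starts and that of Igf1 held none. Their GC content was 66% and 68.8% for the Igf2 windows shown and 52.8% for Igf1. A GC box stood in 32.7% of all 32851 upstream windows of this length, and in 6 of the 14 windows of the 10 genes, belonging to 5 of them. Igf2r, Igfbp2 (at one of its starts), Igfbp7 and Igf1r were the others. The window of Igf2r also held 2 copies of the letters CACGTG, an E box, and the same window of Igfbp2 held 1. At least 1 copy was found in 6.02% of all windows. The tables do not say which start was used.

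Among the ligands, Igf2 (chromosome 7, 149836673 to 149846940, mm9) had 318 FPKM in the Tsc1cKO library, against 639 FPKM in the control library. The Tsc1cKO value was thus 2.01-fold lower, with a difference of −1.003, just past the threshold of 2-fold. With a pseudocount of 5 in place of 1 the difference was −0.99 and did not pass. A gene was called measured where either library reached 1 FPKM. Of the 12409 measured genes, 3.06% were at least 2-fold lower in Tsc1cKO and 5.03% at least 2-fold higher. The Igf2 difference ranked among the lowest 377 of them. In level, Igf2 ranked 221st among measured genes in Tsc1cKO and 81st in control. Whole nerve mixes many cell types, and fewer cells of a type cannot be told apart from less RNA per cell. The span of Igf2 overlaps that of the antisense gene Igf2as by 1343 bases. Igf2as had 0.570 FPKM in Tsc1cKO and 0.853 FPKM in control, far below Igf2, and no use of strand is stated. The microRNA gene Mir483, inside Igf2, was listed at 0 in both libraries.

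Igf1 (chromosome 10, 87321801 to 87399792), the ligand of most postnatal growth, had 15.3 FPKM in Tsc1cKO and 16.9 FPKM in control, a difference of −0.13. Among measured genes 23.8% had a lower difference. The ratio of Igf2 to Igf1 FPKM, which no scaling of a library alters, was 20.8 in Tsc1cKO and 37.8 in control. Igf2 therefore remained the more abundant ligand transcript per length in both libraries.

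H19, the untranslated RNA that neighbours Igf2 and shares its enhancers but is expressed from the maternal copy, had 721 FPKM in Tsc1cKO and 839 FPKM in control, a difference of −0.22. The ratio of Igf2 to H19 was 0.441 in Tsc1cKO and 0.761 in control.

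The receptors had low to moderate levels. Igf1r (chromosome 7, 75097143 to 75378553), the signalling receptor of both ligands, had 3.32 FPKM in Tsc1cKO and 3.90 FPKM in control, a difference of −0.18. It was the lowest of the 10 genes in both libraries, and 20.9% of measured genes had a lower level in Tsc1cKO and 27.6% in control. Igf2r (chromosome 17, 12875272 to 12962572) had 11.7 FPKM in Tsc1cKO and 11.1 FPKM in control, a difference of 0.07. The ratio of Igf2r to Igf1r was 3.52 in Tsc1cKO and 2.83 in control. The value of Igf2r is uncertain, because its span overlaps that of Airn, the antisense RNA that silences the paternal copy of Igf2r, by 28396 bases. Airn had 4.04 FPKM in Tsc1cKO and 4.68 FPKM in control. Of Insr, Insrr, Ins1 and Ins2, the related receptors and ligands, Insr was the measured one. This gene, for the insulin receptor, had 3.21 FPKM in Tsc1cKO and 3.09 FPKM in control, about the level of Igf1r.

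**Figure D1:**
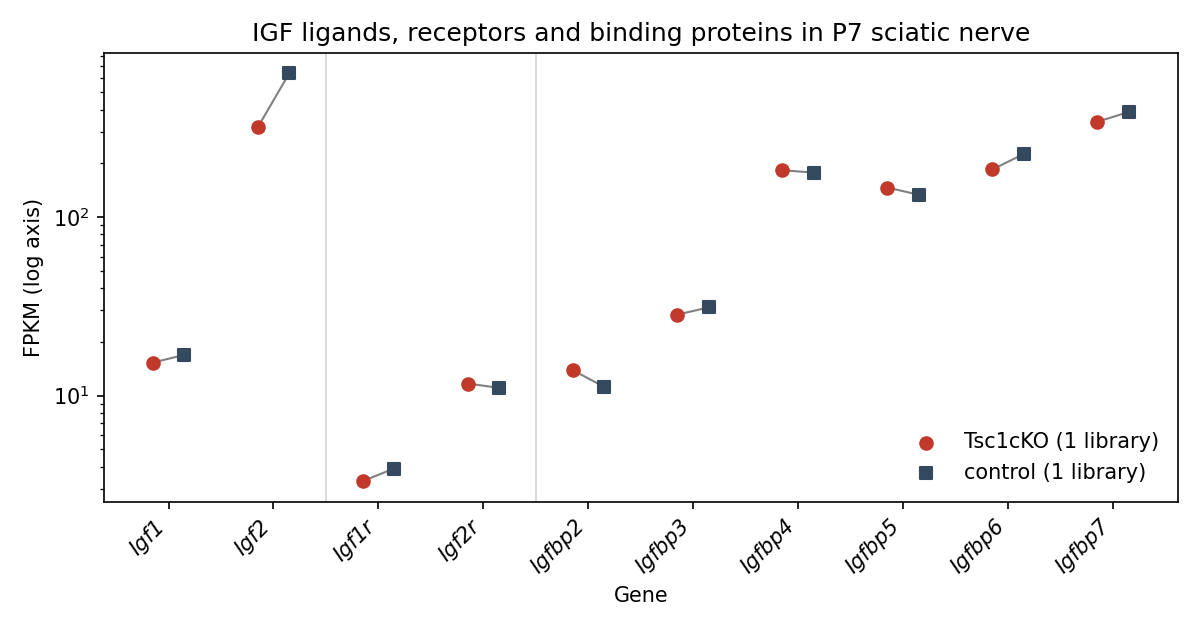
FPKM (log axis) of the 10 genes in the Tsc1cKO library (red circles, left of each pair) and the control library (dark squares), with grey lines joining the values of a gene. Igf2 shows the steepest line, at 318 FPKM in Tsc1cKO and 639 FPKM in control, and Igf1r is the lowest gene in both.

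The binding protein genes differed widely in level and kept one order. In both libraries Igfbp7 was highest, followed by Igfbp6, Igfbp4, Igfbp5, Igfbp3 and Igfbp2. Without replicates the order of neighbours cannot be set against their spread, and Igfbp6 and Igfbp4 stood close in Tsc1cKO, at a ratio of 1.01, against 1.27 in control. Their summed FPKM was 899 in Tsc1cKO and 967 in control. Counting all 10 genes, Igfbp7 was the highest in Tsc1cKO, whereas Igf2 was the highest in control.

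Igfbp7 (chromosome 5, 77778265 to 77837070), which binds IGFs only weakly and is found in the matrix of vessels, had 342 FPKM in Tsc1cKO and 388 FPKM in control, a difference of −0.18. Its span overlaps that of Polr2b by 89 bases. Igfbp6 (chromosome 15, 101974617 to 101979943), which prefers IGF-II to IGF-I, had 185 FPKM in Tsc1cKO and 226 FPKM in control. Its difference of −0.29 was the lowest of the binding proteins, with 15.9% of measured genes lower still. Igfbp6 and, by a larger margin, Igf2 were among the 6 of the 10 genes with a lower value in Tsc1cKO. A link between them was not tested.

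Igfbp4 (chromosome 11, 98902574 to 98913957), whose product mainly restrains IGF action until it is cut by the protease PAPP-A, had 183 FPKM in Tsc1cKO and 177 FPKM in control, a difference of 0.05. Igfbp5 (chromosome 1, 72904639 to 72921439), which binds matrix and is made by Schwann cells in culture, had 147 FPKM in Tsc1cKO and 133 FPKM in control, a difference of 0.13. Igfbp3 (chromosome 11, 7106096 to 7113926), the main carrier of IGFs in blood, had 28.4 FPKM in Tsc1cKO and 31.2 FPKM in control, a difference of −0.13. Igfbp2 (chromosome 1, 72871077 to 72899045), a neighbour of Igfbp5 in the genome, had 13.9 FPKM in Tsc1cKO and 11.2 FPKM in control. Its difference of 0.29 was the highest of the 10 genes.

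Within the pool of binding protein transcripts, shares moved by less than 3 percentage points. Igfbp7 held 38.0% of the summed FPKM of the 6 genes in Tsc1cKO and 40.1% in control, and Igfbp6 held 20.6% in Tsc1cKO and 23.3% in control. Igfbp4 held 20.4% in Tsc1cKO and 18.3% in control, and Igfbp5 held 16.3% in Tsc1cKO and 13.8% in control. These 4 genes together made up 95.3% of the pool in Tsc1cKO and 95.6% in control. Igfbp3 and Igfbp2 held 3.16% and 1.55% in Tsc1cKO, against 3.23% and 1.16% in control. The summed FPKM of the ligands relative to that of the binding proteins was 0.371 in Tsc1cKO and 0.678 in control. Igf1 alone relative to the same sum was 0.0170 in Tsc1cKO and 0.0175 in control, and Igf2 made up most of the ligand sum in both libraries.

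**Figure D2:**
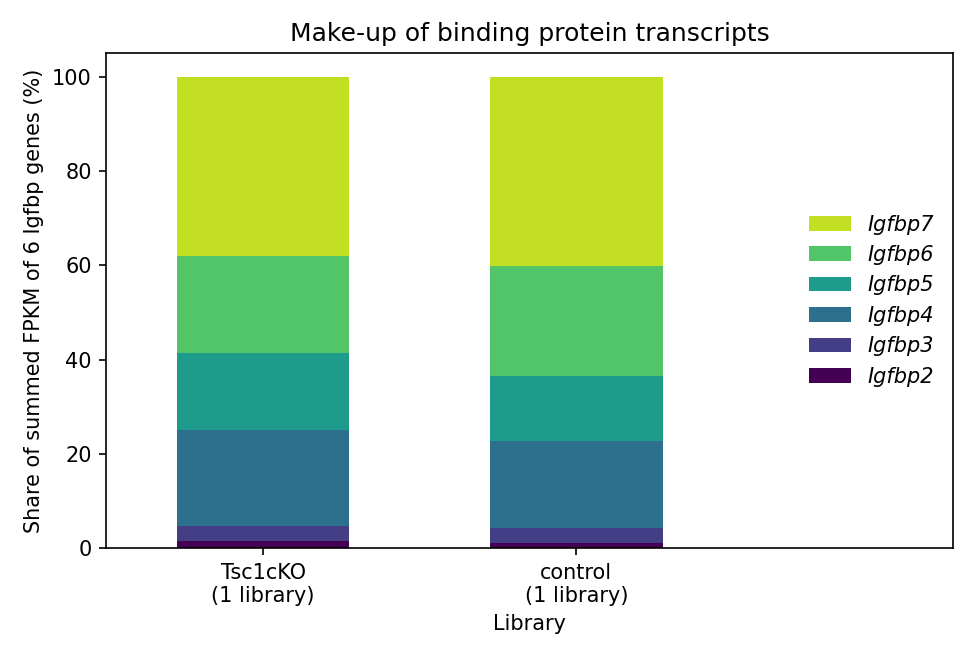
Stacked bars of the share (%) that each of 6 binding protein genes holds in their summed FPKM, for the Tsc1cKO library (left) and the control library (right). Igfbp7 forms the top segment of both bars, 38.0% in Tsc1cKO and 40.1% in control, and no share differs by 3 points.

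Set against all measured genes, the 10 genes lay mostly on the low side. Their median difference was −0.13, with 4 higher and 6 lower in Tsc1cKO, whereas the median over all measured genes was 0.20 and 67% of those were higher. Of the 10, all but Igfbp2 lay below the median of all genes. Dividing the Tsc1cKO values by the median ratio over the 7844 genes that reached 5 FPKM in each library, a shift of 0.24 on the log2 scale, gave 1 gene higher and 9 lower and a median of −0.36, beside −0.01 and 49.1% higher over all genes. Differences on that scale are called centred. When centred, 4 of the 10 genes lay within 0.3 of 0, against 9 as deposited. As deposited 45.2% of all measured genes lay in that band, and the centred share was not computed, so the 4 cannot be judged against it. Igfbp6 was then at −0.52, Igfbp7 at −0.42, Igfbp3 at −0.36, Igf1r at −0.36 and Igf1 at −0.35. The values of Igf2r, Igfbp4 and Igfbp5, at 0.07, 0.05 and 0.13 as deposited, turned to −0.14, −0.19 and −0.10 when centred, so their direction depended on the scaling. Igfbp2, at 0.29 as deposited, was at 0.07 when centred. With 1 library per group, the direction of none of the 10 genes is settled by these data. Igf2 was at −1.24 when centred, and 4.69% of all genes were then at least 2-fold lower. The abundant myelin genes Pmp22 and Mbp held 0.984% of the FPKM sum in Tsc1cKO and 7.22% in control, and the part of this in the shift was not tested.

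**Figure D3:**
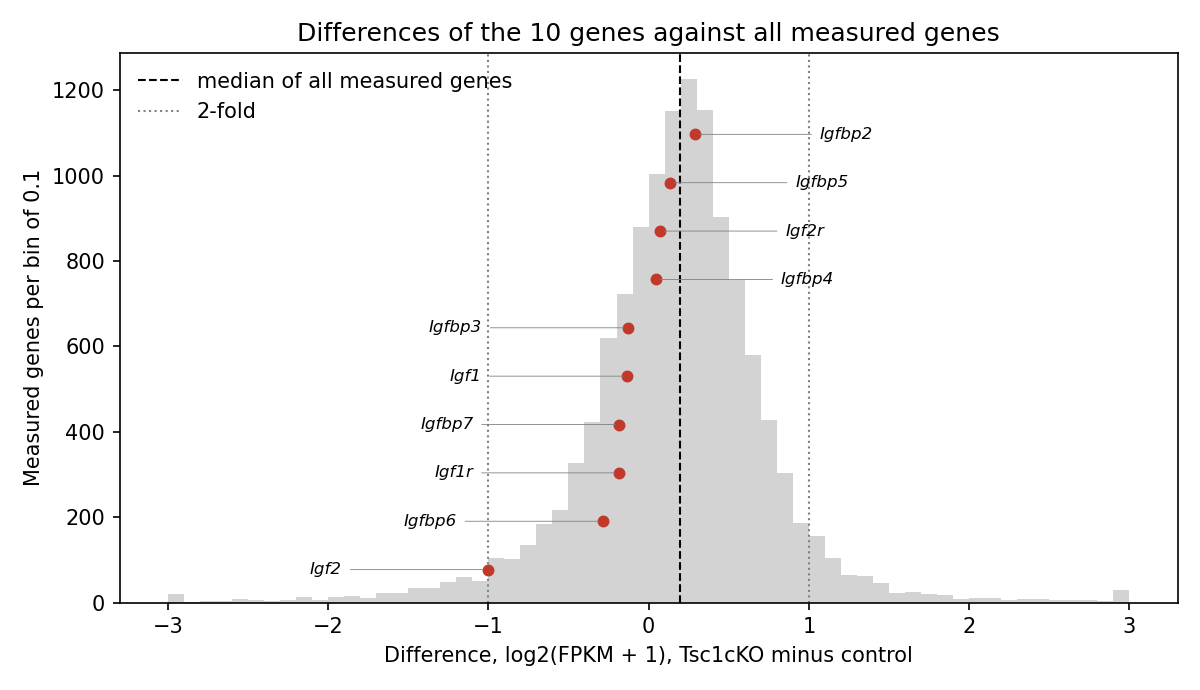
Histogram of differences (log2(FPKM + 1), Tsc1cKO minus control) of the 12409 measured genes in bins of 0.1, with values beyond 3 in either direction drawn in the end bins. Red points mark the 10 genes, their height having no meaning. Igf2 sits at −1.003 on the dotted 2-fold line, and all but Igfbp2 lie left of the dashed median of 0.20.

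**Figure D4:**
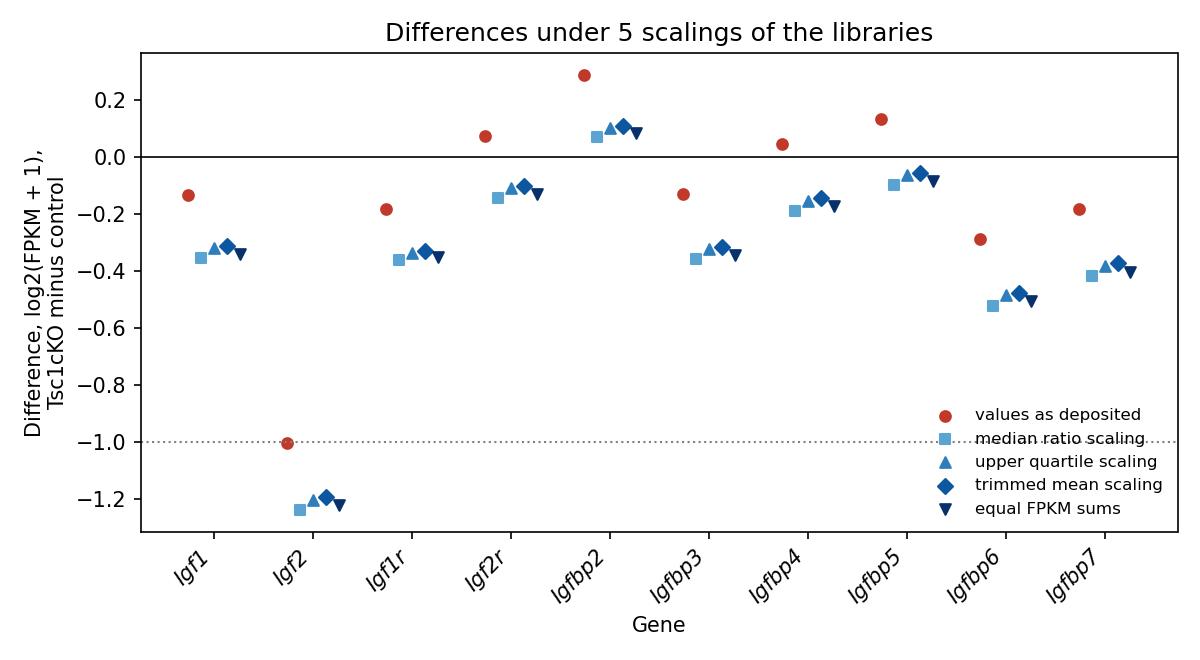
Difference (log2(FPKM + 1), Tsc1cKO minus control) of each gene with values as deposited (red circles) and under 4 ways of scaling the libraries (blue symbols). Igf2 stays at or below −1.003 throughout, and Igf2r, Igfbp4 and Igfbp5 lie above 0 as deposited and below 0 in all 4 scalings.

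Other cells of the nerve were followed with marker genes, since Igf2 is known in fibroblasts, vessels and growing muscle. Of 7 fibroblast markers, 6 were lower in Tsc1cKO, with a median difference of −0.54 (−0.76 centred) and a summed level of 6592 FPKM in Tsc1cKO and 10125 FPKM in control. Igf2 per 1000 FPKM of these markers was 48.3 in Tsc1cKO and 63.1 in control, 1.31-fold lower in Tsc1cKO. The collagen genes Col1a1, Col1a2 and Col3a1 made up most of that marker sum, with differences of −0.67, −0.54 and −0.76. Pdgfra, Dcn, Lum and Dpt weighed little in it and were at −0.54, −0.38, −0.27 and 0.04. The fibroblast yardstick and that for muscle below were chosen after seeing the data. The 5 perineurial and 7 endothelial markers were all lower, with medians of −0.33 and −0.28 (−0.56 and −0.50 centred) and no gene past 2-fold as deposited. When centred, 1 endothelial marker passed 2-fold, Kdr at −1.14 (−0.94 as deposited). Summed levels were 106 FPKM in Tsc1cKO and 134 FPKM in control for perineurial markers, and 105 FPKM in Tsc1cKO and 132 FPKM in control for endothelial markers. All 5 measured skeletal muscle markers were higher, with a median of 1.04 and a summed level of 574 FPKM in Tsc1cKO and 274 FPKM in control over all 6 listed genes. Igf2 per 1000 FPKM of the muscle markers was 555 in Tsc1cKO and 2335 in control, 4.21-fold lower in Tsc1cKO. Igf2 thus went in direction with most fibroblast markers, with the perineurial and endothelial ones and with the myelination markers below. It went against the muscle markers, and the part of any of these in its value was not tested.

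**Figure D5:**
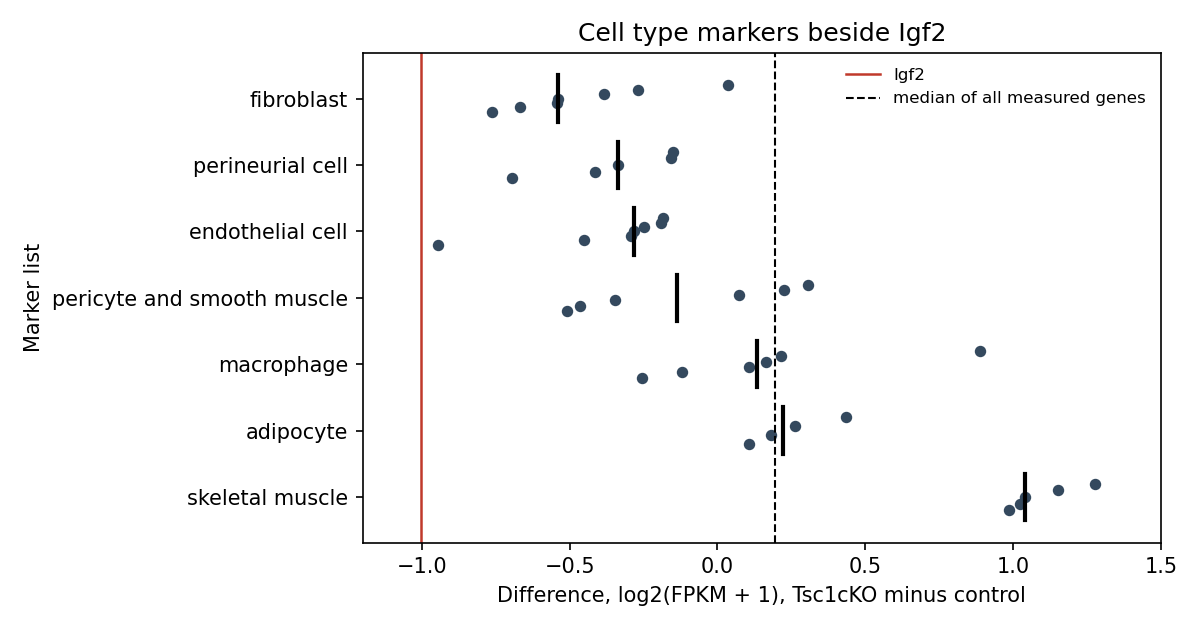
Differences (log2(FPKM + 1), Tsc1cKO minus control) of measured marker genes of 7 cell types (points, black bar at the median), beside the value of Igf2 (red line) and the median of all measured genes (dashed). Fibroblast markers centre on −0.54 and skeletal muscle markers on 1.04, and Igf2 at −1.003 lies below every point shown. Markers of Schwann cells, myelination, melanocytes and red blood cells are not drawn. Among them, all 5 usable markers of myelination and Hbb-b1 lie below Igf2.

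Markers of Schwann cells, the glia of the nerve, were present in both libraries. Of 6 usable Schwann cell markers, 5 were higher, with a median of 0.62 and 1610 FPKM summed in Tsc1cKO and 1071 FPKM in control. All 5 usable markers of myelination were at least 2-fold lower, with a median of −2.17. Markers of pericytes and smooth muscle had a median of −0.14, macrophages 0.13 and adipocytes 0.22. The 3 measured red blood cell markers were mixed, with Hba-a1 at 0.89 and Alas2 at 1.15, and Hbb-b1 at −1.80, the globin values being uncertain because of near-identical paralogs. Of 4 measured melanocyte markers 3 were at least 2-fold higher and 1 lower, with a median of 3.44. Tyrp1 had 802 FPKM in Tsc1cKO and 0.361 FPKM in control, Pmel had 354 FPKM in Tsc1cKO and 8.95 FPKM in control, and Mitf was lower, at −0.32. Mlana was at 0 in both libraries. Tsc1 itself had 2.28 FPKM in Tsc1cKO and 3.76 FPKM in control, over the whole gene and all cells.

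Of 8 genes for proteases that free IGFs from their binding proteins and for inhibitors of these proteases, 3 were measured, all of them protease genes, with 1 higher, 2 lower and none past 2-fold. Htra1, which encodes a secreted serine protease that cuts binding proteins and the highest of the list, had 49.3 FPKM in Tsc1cKO and 68.2 FPKM in control, a difference of −0.46. Adam12, chosen after its values were seen, had 3.90 FPKM in Tsc1cKO and 7.69 FPKM in control, a difference of −0.83 that passed 2-fold when centred (−1.01). Pappa, encoding the protease PAPP-A named above and also chosen afterwards, was near 0, at 0.0787 FPKM in Tsc1cKO and 0.0645 FPKM in control. Of 3 further genes for IGF carriers, Igfbp1, Igfals and Igfbpl1, none was measured, and Igfbp1 was listed at 0 in both libraries.

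Below the receptor, 7 of 8 genes for docking and adaptor proteins were measured, with 2 higher and 5 lower, none past 2-fold and a median of −0.05. Over all measured genes 67% were higher and the median was 0.20. When centred, 1 was higher and 6 lower, with a median of −0.23, beside −0.01 over all genes. Grb10, the highest of them, which encodes an adaptor that dampens receptor signalling and is itself imprinted, had 50.8 FPKM in Tsc1cKO and 48.8 FPKM in control. Irs1 and Shc1, chosen after their values were seen, encode the adaptors that lead to PI3K and to RAS. Irs1 had 4.53 FPKM in Tsc1cKO and 8.49 FPKM in control, a difference of −0.78. Shc1 had 43.7 FPKM in Tsc1cKO and 23.2 FPKM in control, a difference of 0.88. Irs2, also chosen afterwards, had 6.16 FPKM in Tsc1cKO and 6.23 FPKM in control.

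All 12 genes for PI3K, AKT and FOXO steps were measured, with 7 higher and 5 lower, turning to 4 higher and 8 lower when centred. Their median was 0.17, close to that of all genes. Akt1, the highest of the list, had 122 FPKM in Tsc1cKO and 98.1 FPKM in control, a difference of 0.32 (0.08 centred).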

How the data were processed

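Per the labels' protocols, Trizol was used for RNA extraction and a TruSeq RNA kit for the libraries, which were grouped by the labelled genotype. Per the file headers, each deposited table gives 1 FPKM value per gene. The submitters' processing notes name build mm9 and the tools CASAVA, TopHat and Cufflinks. Their roles and versions and the annotation were not given in the sources used here, and the tables hold no counts, so depth and counting error are unknown.

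Rows sharing a symbol were summed (22532 rows, 22096 symbols), and 3 genes with a failed status were left out. Start coordinates were raised by 1 to count from 1. Genes that reached 1 FPKM in either library were called measured. Differences used a pseudocount of 1 and a size rule of 2-fold, since 1 library per group allows no test. The calculation was tested on simulated data. Promoters came from RefSeq (GRCm38.p6) and share no coordinates with mm9. All 10 genes had a promoter there. Named genes were the 10 members, Tsc1, and in each of the 7 surrounding lists the genes past 2-fold and the one with the highest mean. Not every gene that meets this rule is reported here. The members, the gene lists and the 11 marker lists were chosen with earlier results of these data known, and the promoter motifs after the values were seen. Alternatives were pseudocounts of 0.1 and 5, other filters, 4 scalings, other thresholds and symbols on more than 1 row left out. Python 3.11.15, pandas 2.3.3, numpy 2.4.6 and matplotlib 3.10.9 were used.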

Additional observations from a re-analysis of the deposited data

How the results depend on the processing

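Igf2 was lower in Tsc1cKO under all 10 alternatives, at −1.24 to −0.99, but none of them could have turned its direction. The filters and the settings for rows and failed estimates could not alter its value, and a pseudocount cannot turn a direction. All 4 scalings divided the Tsc1cKO values by a factor above 1, so they could only lower its difference. With a pseudocount of 5 its value of −0.99 no longer passed 2-fold, so that 0 of the 10 genes did, as with a 3-fold threshold (0). The median difference of the 10 genes was −0.14 with a pseudocount of 0.1, −0.10 with 5, −0.13 with a filter of 5 FPKM, and −0.36, −0.32, −0.31 and −0.34 with median ratio, upper quartile, trimmed mean and equal sum scaling. Under each of these 4 scalings 1 gene was higher, against 4 as deposited, and Igf2r, Igfbp4 and Igfbp5 turned lower. The other 7 genes kept their direction in every alternative that could be computed. Of these, the 6 that were lower as deposited could only be pushed further by the scalings, so only Igfbp2 could have turned. Igf1r dropped out with the filter of 5 FPKM.

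Over all genes, 624 were at least 2-fold higher and 380 lower. With a pseudocount of 5 these were 283 and 221, with median ratio scaling 355 and 577, with a 1.5-fold threshold 2211 and 934, and with a 3-fold threshold 173 and 134. Upper quartile, trimmed mean and equal sum scaling gave 379, 387 and 364 higher and 543, 537 and 558 lower, so that under all 4 scalings lower genes outnumbered higher ones, the reverse of the values as deposited. Ratios and shares within a library do not depend on scaling. All 16 were the same without symbols on more than 1 row and, chosen after seeing the data, with failed estimates kept. Neither setting could alter them, because each of the 10 genes has 1 row and a valid estimate, so their sameness is no support. No paired analysis was possible because each group has 1 library. Without replicates or counts, no difference can be set against sampling or animal variation.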

Other observations

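Several secreted proteins outside the IGF system carry a domain like the one at the start of the binding proteins, among them the matrix-associated CCN proteins. Of 11 such genes, 8 were measured, with 3 higher and 5 lower in Tsc1cKO and a median difference of −0.28 (−0.50 centred), beside 0.20 (−0.01 centred) over all genes. Wisp1, a CCN gene known as a target of WNT signalling, was the one past 2-fold, with 7.30 FPKM in Tsc1cKO and 17.5 FPKM in control, a difference of −1.16 that no longer passed 2-fold with a pseudocount of 5. Of all genes measured, 3.06% were at least 2-fold lower. Nov, the highest of the list, had 49.6 FPKM in Tsc1cKO and 66.4 FPKM in control, a difference of −0.41. Ctgf and Cyr61, chosen after their values were seen, encode the best known CCN proteins. Ctgf had 5.18 FPKM in Tsc1cKO and 5.16 FPKM in control, and Cyr61 had 14.2 FPKM in Tsc1cKO and 18.6 FPKM in control. These lists were chosen with earlier results known, and nothing here was tested.

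The IGF2 mRNA binding proteins attach to Igf2 transcripts among others. Where measured, their genes were higher in Tsc1cKO, unlike Igf2, as were 67% of all measured genes. Igf2bp2, chosen like the others below after its values were seen, had 32.1 FPKM in Tsc1cKO and 22.8 FPKM in control, a difference of 0.48 (0.25 centred). Igf2bp3 had 1.33 FPKM in Tsc1cKO and 1.08 FPKM in control, close to the cut of 1 FPKM, with a difference of 0.16 (0.03 centred). Igf2bp1 was below 1 FPKM in both libraries, at 0.0865 in Tsc1cKO and 0.169 in control.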
